A study of Caenorhabditis elegans with 28 samples.

Results

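The sperm gene families described here are the 85 genes, of the 20392 in the table, whose names start with msp-, ssp-, nspd-, spch- or spe-, together with gsp-3 and gsp-4. There were 30 msp- genes, 12 ssp- genes, 10 nspd- genes, 3 spch- genes, 28 spe- genes and the gsp- pair, chosen by name and not by level. The mRNA of whole Caenorhabditis elegans larvae was sequenced every hour from 18 h to 31 h after synchronized L1 larvae were put on food at 25°C. One group was the N2 strain, called wild type. The other was strain HW3527, which carries ebax-1(tm2321), an allele on chromosome IV of the gene for EBAX-1, a substrate receptor of an E3 ubiquitin ligase. Neither group was treated, and the 2 groups shared temperature and sampling hours. Each hour and genotype was 1 library, so there were 14 libraries per genotype and no replicate libraries of an hour; every value is a single library, and tests used the spread of the libraries around a curve over time or between paired hours. Levels are counts per 1000000 counts of the library (CPM), and at these depths 1 CPM stood for 5.12 to 9.60 counts. The ebax-1 transcript had a lowest, median and highest level of 32.3, 69.9 and 137 CPM in wild type, against 17.9, 25.8 and 49.0 CPM for the mutant, and was lower in the mutant at 11 of the 14 equal hours; the counts do not show which part of the transcript was read.

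A C. elegans hermaphrodite makes sperm for a limited time in the last larval stage, and its germ line then turns to oocytes. Because transcription stops as the spermatocytes divide, the mRNAs for sperm structure, activation and fertilization are made beforehand, in the spermatocytes. The crawling sperm has no actin-based motility and moves by assembling filaments of major sperm protein (MSP), which is first stored in fibrous bodies attached to membranous organelles. The spe- genes were named for sperm defects of their mutants and encode proteins of many kinds, whereas the msp-, ssp-, nspd- and spch- genes are families of small proteins. In whole-animal RNA, fewer cells of a type and less RNA per cell cannot be told apart.

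Sperm genes came on late and steeply in both genotypes, and about 3 h later in the mutant. From oscillating genes in these same libraries, the paper reports that mutant larvae as a whole ran behind wild type in development. A lag of the sperm genes is therefore not by itself particular to them. Whether they lagged by more or less than the whole animal was not tested here. In wild type the 85 genes together made up 86.1 CPM at 18 h and 132 CPM at 25 h, then 231 CPM at 26 h, 345 at 27 h, 652 at 28 h, 1308 at 29 h, 2181 at 30 h and 3162 CPM at 31 h. In the mutant their sum stayed between 80.2 and 109 CPM from 18 h to 27 h and was 118 CPM at 28 h, 216 at 29 h, 315 at 30 h and 607 CPM at 31 h. The mutant value at 31 h lay below the wild-type value at 28 h, and above that at 27 h. Expressed as a share of the library, the genes held 0.316% of the counts at wild-type 31 h and 0.0607% at mutant 31 h.

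The msp- genes, which encode major sperm protein, made the largest part of this rise in wild type. Their summed level was at most 2.85 CPM in wild type through 25 h, and then 21.3, 55.0, 148, 405, 790 and 1274 CPM from 26 h to 31 h. In the mutant the same sum was at most 2.29 CPM through 28 h, and 19.1, 39.4 and 127 CPM at 29, 30 and 31 h. The gsp- pair, gsp-3 and gsp-4, which encode sperm-specific catalytic subunits of protein phosphatase 1, summed to 1.86 CPM at wild-type 25 h, 11.8 at 26 h, 39.8 at 28 h and 190 CPM at 31 h. The mutant sum of that pair was 2.29, 10.2, 17.8 and 36.6 CPM from 28 h to 31 h. The spch- genes, for proteins enriched in sperm chromatin, summed to 2.23, 11.4, 21.9, 57.2, 126, 227 and 341 CPM from wild-type 25 h to 31 h. Their mutant values from 28 h to 31 h were 0.944, 9.36, 18.7 and 58.3 CPM. The nspd- genes, a nematode-specific peptide family, went from 2.48 CPM at wild-type 25 h to 355 CPM at 31 h, and from 2.02 CPM at mutant 28 h to 51.2 CPM at 31 h. The ssp- genes, the sperm-specific family of class P, which resemble MSP, went from 1.73 to 202 CPM over the same wild-type hours and from 0.405 to 25.7 CPM over the same mutant hours. From 25 h on in wild type and 28 h on in the mutant, the first hourly step was the largest in relative terms for each of these 5 groups. The spe- genes together were never low, at 84.9 to 121 CPM through wild-type 25 h, with a few of them read at every hour, and reached 800.0 CPM at wild-type 31 h. In the mutant the spe- sum went from 110.3 CPM at 28 h to 308 CPM at 31 h, a larger step in CPM than that of the msp- sum over the same hours.

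**Figure D1:**
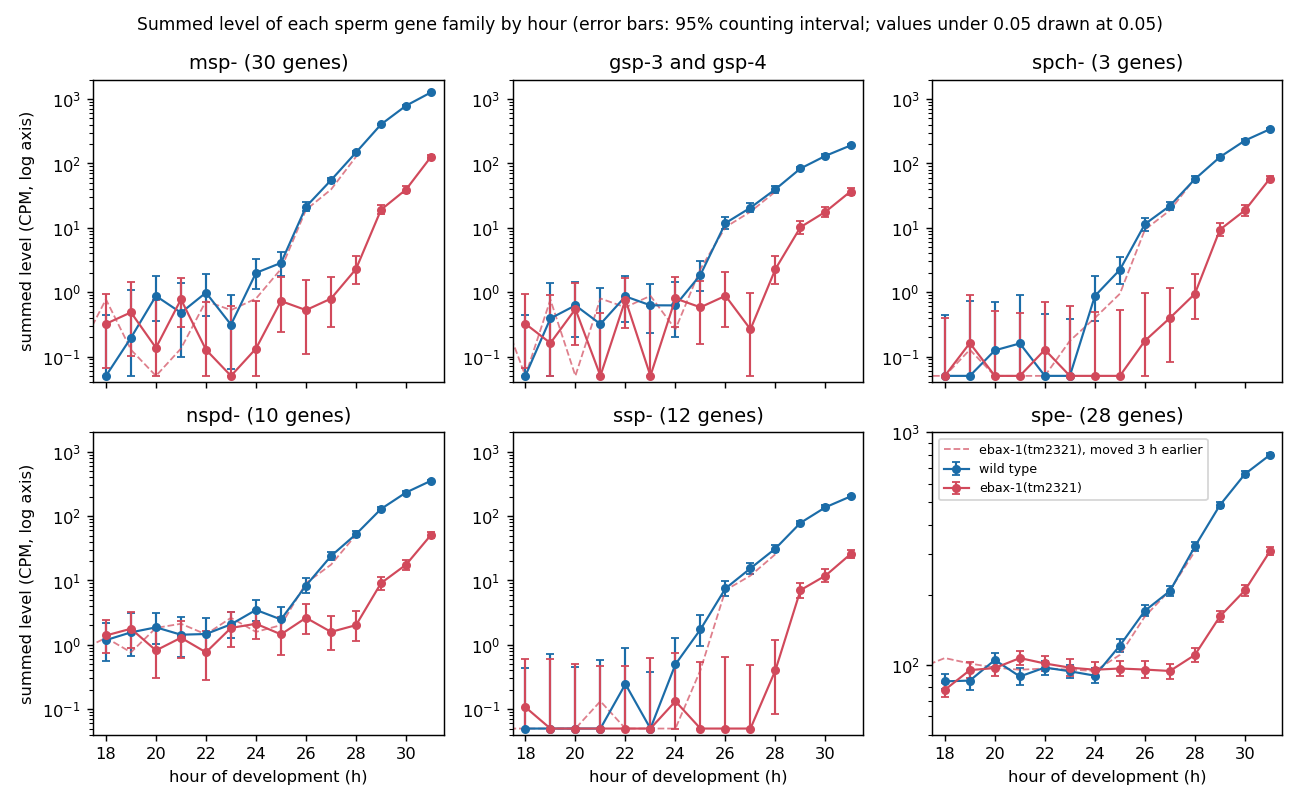
Summed level of each family in CPM (vertical, log axis) against hour of development (horizontal), with wild type in blue, ebax-1(tm2321) in red, 95% counting intervals as bars, and the mutant series moved 3 h earlier as a dashed line. Over the last 3 pairs of hours the moved mutant line runs close to the wild-type line in all panels, for msp- from 19.1 CPM (wild type 21.3) to 127 CPM (wild type 148). Earlier, at low counts, the lines part in some panels, as for ssp- at 0.405 CPM at mutant 28 h against 1.73 CPM at wild-type 25 h.

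The delay can be read from the hour at which a family's sum passed 10 CPM, found by straight-line interpolation of the log level between hourly libraries. The msp- sum passed it at 25.6 h in wild type, against 28.7 h for the mutant, a lag of 3.07 h with a counting half-width of 0.182 h. The gsp- pair did so at 25.9 h and 29.0 h, a lag of 3.07 h (half-width 0.320 h), and the spch- genes at 25.9 h and 29.1 h, a lag of 3.18 h (0.316 h). The nspd- sum crossed at 26.2 h and 29.1 h, a lag of 2.97 h (0.371 h), and the ssp- sum at 26.4 h and 29.7 h, a lag of 3.27 h (0.560 h). The counting intervals of the 5 lags overlapped. No crossing can be given for the spe- sum, which was above 10 CPM in all 28 libraries.

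The onset of a gene was taken as the first hour from which it was at 1 CPM or more in that library and every later one. In wild type 5 of the 85 genes were on from 18 h, 76 came on later and 4 did not reach the threshold to stay; 22 came on at 26 h and 19 at 27 h. In the mutant 6 were on from 18 h, 57 came on later, of which 23 at 29 h, 15 at 30 h and 15 at 31 h, and 22 did not come on by 31 h. For the 56 genes with an onset after 18 h in both genotypes the median lag was 3 h (SD 1.43 h over genes), the quartiles were 3 and 4 h, and 55 of the 56 were later in the mutant. The lag was 2 to 4 h for 53 of them. With a lag of 3 h, genes that come on after 28 h in wild type would come on after the last mutant hour, so the 56 leave out many of the latest genes. Over all genes of the table with any count, 2934 of 19161 had an onset after 18 h in wild type.

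The lowest and highest lags belonged to genes that hover near the threshold before the rise. nspd-7 had a lag of -3 h, with levels between 0.828 and 2.86 CPM in wild type through 25 h and between 0.409 and 2.63 CPM in the mutant through 28 h. It then went to 67.4 CPM at wild-type 31 h and 11.7 CPM at mutant 31 h. spe-6 had a lag of 10 h, with an onset at 19 h in wild type but 29 h in the mutant, yet its mutant levels from 18 h to 27 h were 1.40 to 2.66 CPM and only the 28 h library, at 0.944 CPM, broke the run. Next came lags of 2 h, shared by gsp-4, msp-3, msp-33, msp-142 and others, and at the other end msp-76 had a lag of 5 h, and spe-9, spe-10, spe-47 and others had 4 h. In gsp-4 the mutant was already at 1.75 CPM at 28 h, before 4.42 CPM at 29 h, and msp-76 stood at 0.758 and 0.309 CPM at mutant 29 and 30 h before 6.31 CPM at 31 h. At these depths a level of 1 CPM is a handful of counts, so lags of 2 and 4 h differ by counts of that size.

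A threshold set by each gene's own level gave a different order. For genes at 5 CPM or more at wild-type 31 h, the hour was interpolated at which the gene passed 10% of that level; 64 genes could be timed in wild type and 45 in both genotypes. The lag of the 45 had a median of 3.17 h (SD 0.478 h), ran from 2.01 h for spe-44 to 4.35 h for spe-10, and lay within 0.5 h of 3 h for 34 of them. Genes timed in wild type that had not passed their 10% point by mutant 31 h are left out. Long lags of late genes are thus missing, and the median, SD and range of the lags cover the 45 only. This measure was chosen after the values were seen. Across the 45 genes the wild-type and mutant hours had a Pearson r of 0.88 and a Spearman rho of 0.796; the genes of a genotype share the same libraries and each gene's level threshold is the same in both.

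**Figure D2:**
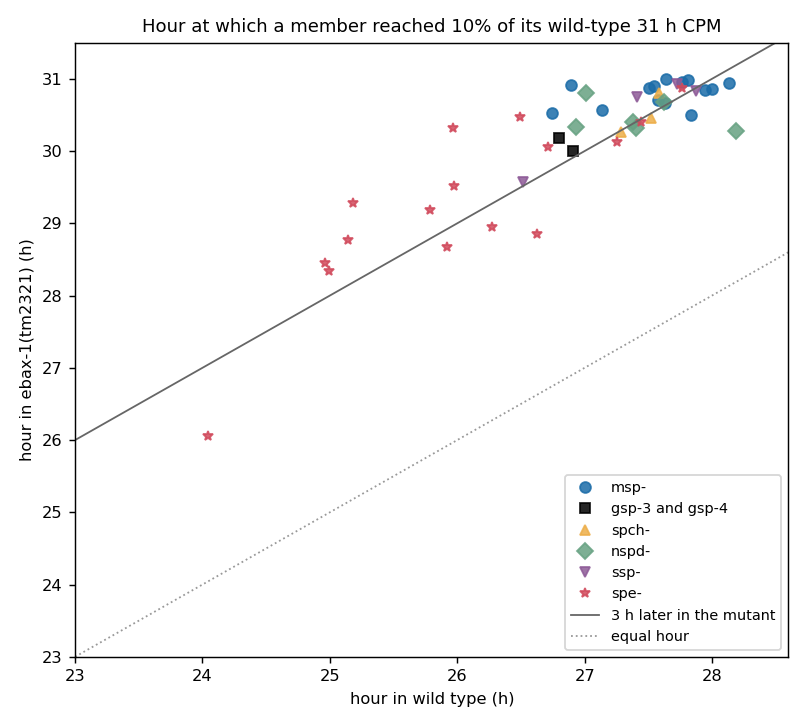
Hour at which each of 45 genes passed 10% of its own wild-type 31 h level, in wild type (horizontal, h) and in ebax-1(tm2321) (vertical, h), 1 point per gene with a symbol per family; the solid line is a delay of 3 h and the dotted line no delay. All points lie above the dotted line, spe-44 is lowest at 24.0 and 26.1 h, and msp- genes gather at the upper right.

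By this measure several spe- genes came first, and other spe- genes came as late as the families of small proteins. The earliest was spe-44, which encodes a transcription factor needed for sperm gene expression: its 10% point was at 24.0 h in wild type, against 26.1 h for the mutant. Next in wild type came spe-4 (a presenilin of the membranous organelles) at 25.0 h, spe-41 (a TRP calcium channel also called trp-3) at 25.0 h, spe-6 (a casein kinase of the spermatocyte) at 25.1 h and spe-47 (a protein with an MSP domain) at 25.2 h. The surface protein gene spe-9, needed for fertilization, followed at 25.8 h, with spe-49 at 25.9 h and spe-10 (a palmitoyltransferase) at 26.0 h. The gsp- pair stood at 26.8 h (gsp-4) and 26.9 h (gsp-3). The spch- genes stood at 27.3 to 27.6 h, and the medians of the nspd-, ssp- and msp- genes were 27.5, 27.7 and 27.8 h. The msp- median was thus the last here, though the msp- sum was the first of those timed to pass 10 CPM, at 25.6 h. A 10% point depends on the wild-type 31 h level, and the msp- sum still climbed from 790 CPM at 30 h to 1274 CPM at 31 h. The spe- genes as a whole ran from 24.0 to 28.1 h in wild type, with spe-8 at 27.4 h, spe-11 at 27.8 h and spe-54 at 28.1 h among the latest. In the mutant the same groups came at 28.5 h for spe-4, 28.3 h for spe-41, 28.8 h for spe-6, 29.3 h for spe-47, 29.2 h for spe-9, 30.0 and 30.2 h for gsp-3 and gsp-4, 30.3 to 30.8 h for the spch- genes, and medians of 30.4, 30.8 and 30.9 h for nspd-, ssp- and msp-. Neighbours in this order that are under 0.5 h apart, about the SD of the lags over genes, are not set apart. Several of the earliest spe- genes were also read before the rise, so a smaller rise took them past their 10% point. From wild-type 18 h to 24 h, spe-44, spe-41, spe-6 and spe-4 reached 4.61, 3.64, 3.12 and 2.71 CPM, while no msp- gene was above 0.872 CPM. How much of the order comes from this was not tested. In the mutant only 14 of 27 timed msp- genes had passed their 10% point by 31 h, so the mutant msp- median is that of the earlier ones.

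The level of spe-44 had already gone up by wild-type 26 h, and its fold from then to 31 h was small. In wild type it was at 1.28 to 4.61 CPM from 18 h to 24 h and then at 10.8, 21.0, 23.5, 37.0, 46.0, 48.9 and 48.0 CPM from 25 h to 31 h. In the mutant it was at 0.860 to 5.82 CPM from 18 h to 27 h and at 9.44, 15.9, 25.2 and 38.3 CPM from 28 h to 31 h. It flattened after 29 h in wild type, where no flattening was seen within the mutant hours. From 26 h to 31 h in wild type spe-44 went up 2.28-fold, while the msp- genes with more than 3 counts at 26 h went up by a median of 50.7-fold (15 genes, 23.8 to 82.6-fold). The median over spe- genes was 9.85-fold (16 genes), and the medians of the nspd-, ssp-, spch- and gsp- groups were 42.4-, 39.5-, 34.3- and 16.0-fold.

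**Figure D3:**
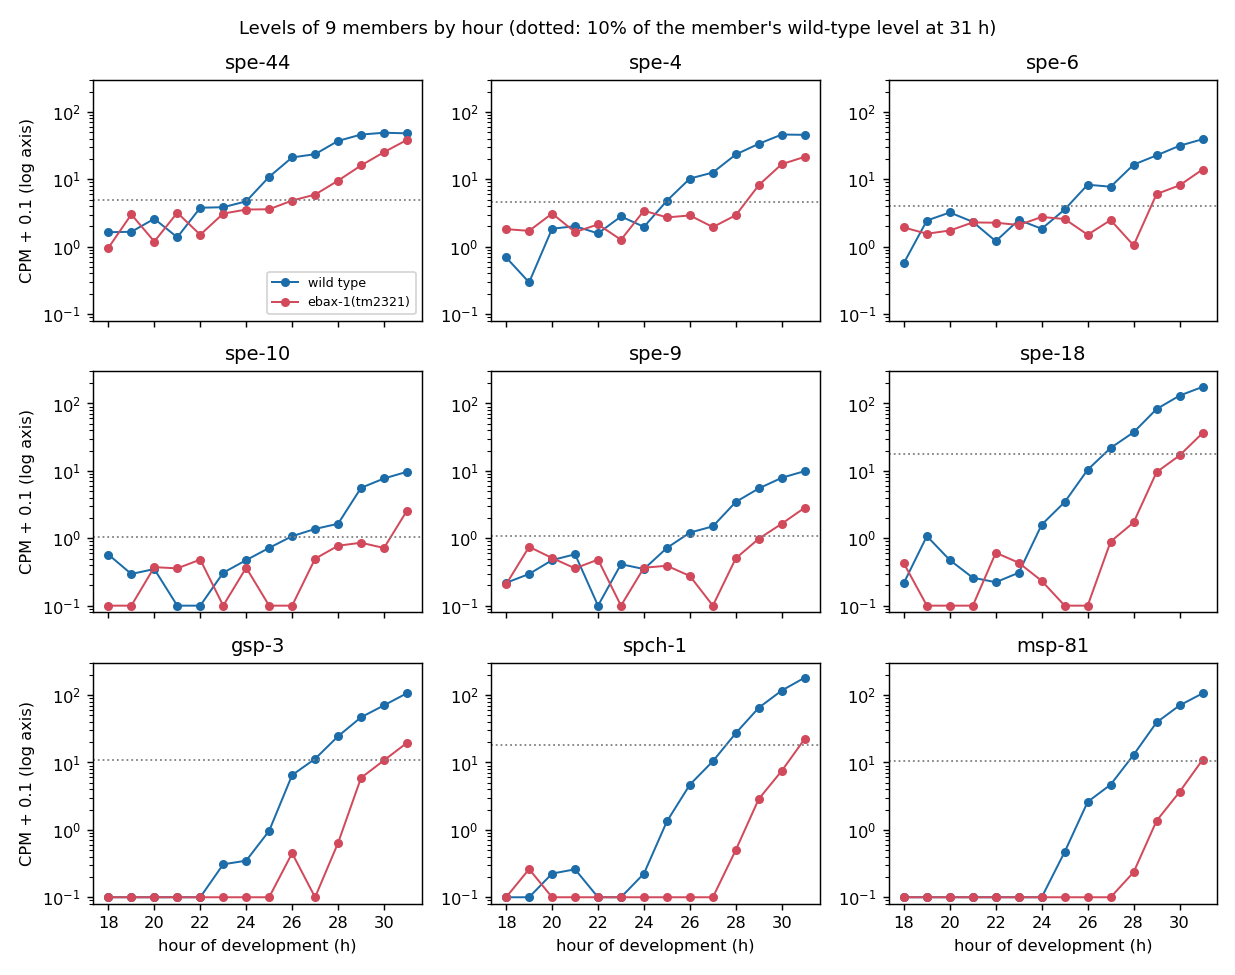
Level of 9 genes as CPM + 0.1 (vertical, log axis) by hour (horizontal, h) in wild type (blue) and ebax-1(tm2321) (red); the dotted line marks 10% of the wild-type 31 h level. spe-44 passes its line first, at 24.0 h in wild type, and msp-81 passes it at 27.8 h.

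Among the spe- genes, those for building spermatids and their organelles came up with or after spe-44. spe-18, which promotes assembly of MSP in the fibrous bodies, was the most abundant member of its family at wild-type 31 h, at 176 CPM, after 3.35 CPM at 25 h, 10.3 at 26 h and 37.3 CPM at 28 h. In the mutant it was at 1.62, 9.48, 16.8 and 36.2 CPM from 28 h to 31 h. spe-4 was at 4.71 CPM at wild-type 25 h, 10.2 at 26 h, 23.3 at 28 h and 45.6 CPM at 31 h, and at 2.83, 8.09, 16.7 and 21.4 CPM from mutant 28 h to 31 h. spe-26, which encodes a kelch-repeat protein, reached 31.8 CPM at wild-type 31 h and 5.49 CPM at mutant 31 h, and its mutant value lay between those of wild-type 27 h (2.30 CPM) and 28 h (8.13 CPM). spe-10 stayed lower, at 9.59 CPM at wild-type 31 h and at 2.47 CPM at mutant 31 h.

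Genes for activating the sperm differed in level and in timing. spe-8, which encodes a tyrosine kinase that starts activation, was at 0.556 CPM or less in wild type through 26 h and at 12.9 CPM at 31 h, with 3.98 CPM at mutant 31 h. spe-12 and spe-27, of the same pathway, came on at 29 h and 31 h in wild type and reached 3.84 and 3.00 CPM at 31 h. Neither came on in the mutant by 31 h, where a lag of 3 h would put both onsets after the last hour. The highest mutant level of spe-12 was 1.29 CPM, at 18 h. spe-19, also of that pathway, came on at 27 h in wild type, against 29 h for the mutant, and was at 7.67 CPM at wild-type 31 h and 1.65 CPM at mutant 31 h. spe-29, another of that pathway, had 6 counts in all 28 libraries together, so no timing was detectable at this depth. spe-43, needed for activation as well, was at 3.12 CPM at wild-type 31 h and 0.961 CPM at mutant 31 h. zipt-7.1, a zinc transporter gene outside the families with a role in activation, was on from the first hour, at 8.76 CPM at wild-type 18 h and 28.65 CPM at 31 h.

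Genes for meeting the egg differed in level. spe-9, which encodes a surface protein with EGF repeats, was at 1.11 CPM at wild-type 26 h, 3.36 at 28 h and 9.83 CPM at 31 h, and at 0.885, 1.54 and 2.74 CPM from mutant 29 h to 31 h. spe-42, for a membrane protein needed at fertilization, reached 10.7 CPM at wild-type 31 h and 3.43 CPM at mutant 31 h. spe-38, for a membrane protein with a role in fertilization, reached only 2.64 CPM at wild-type 31 h and 0.686 CPM at mutant 31 h. spe-11, whose product enters the egg with the sperm and acts in egg activation, went from 1.53 CPM at wild-type 26 h to 47.0 CPM at 31 h, and from 0.758 CPM at mutant 29 h to 5.49 CPM at 31 h.

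Some spe- genes were read throughout and did not follow this pattern. spe-39, for a vesicle trafficking protein used in many cells, was at 30.5 CPM lowest and 42.5 CPM highest in wild type and at 29.1 and 41.1 CPM in the mutant. spe-48 kept between 21.6 and 34.02 CPM in wild type and 18.9 and 38.8 CPM in the mutant, and spe-36, for a secreted sperm protein, between 0.976 and 3.50 CPM in wild type and 1.45 and 3.44 CPM in the mutant. These 3 were the only tested members not called as rising in wild type. spe-15, which encodes a myosin VI, had both features: it was at 13.6 to 22.7 CPM through wild-type 27 h and then at 44.4, 70.2, 104 and 132 CPM from 28 h to 31 h. In the mutant spe-15 was at 12.7 to 23.5 CPM through 30 h and at 39.2 CPM at 31 h. spe-51 stayed at or under 1.63 CPM in every library. A gene called spe-5 by name was not analysed here.

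Within the gene families the levels at wild-type 31 h differed widely between copies. Per kb of exon, the nspd- genes had the highest members, with nspd-1 at 360 CPM per kb, ahead of msp-81 at 276, spch-1 at 269, ssp-16 at 164, spe-18 at 143 and gsp-3 at 95.6 CPM per kb. The msp- genes ran from 4.66 to 276 CPM per kb with a median of 114, and the spe- genes from 0.530 to 143 with a median of 12.2 CPM per kb. All msp- genes were above 1 CPM at wild-type 31 h, from 1.68 CPM for msp-32 to 106 CPM for msp-81, while nspd-8 and ssp-37 had no count in any library. The msp-, nspd- and ssp- copies and the gsp- pair are close to each other in sequence, and the alignment command in the study's methods sets no option for reads that fit several copies, so the tool's default applied. How many such reads were left out or given to 1 copy cannot be read from the counts, so the values of single copies are uncertain, and the family sums leave out any reads that the default drops.

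By hour, msp-81 was at 0.372, 2.50, 4.59, 12.9, 39.2, 70.2 and 106 CPM from wild-type 25 h to 31 h, and at 0.135, 1.26, 3.55 and 10.8 CPM from mutant 28 h to 31 h. Its mutant levels were under the wild-type level of the same hour in each of these hours. spch-1 was at 1.24, 4.59, 10.3, 27.2, 64.9, 117 and 181 CPM from wild-type 25 h to 31 h, and at 0.405, 2.78, 7.41 and 22.4 CPM from mutant 28 h to 31 h. The other members of its family, spch-2 and spch-3, were at 33.4 and 126 CPM at wild-type 31 h and at 5.63 and 30.3 CPM at mutant 31 h. gsp-3 was at 0.867, 6.40, 11.2, 24.4, 46.7, 70.3 and 107 CPM from wild-type 25 h to 31 h, and at 0.540, 5.82, 10.7 and 19.5 CPM from mutant 28 h to 31 h. nspd-1 reached 76.6 CPM and ssp-16 reached 54.1 CPM at wild-type 31 h, against 13.6 and 10.8 CPM at mutant 31 h. For each of these genes the mutant value at 31 h lay between the wild-type values at 27 h and 29 h. It did so for 77 of the 85 genes, a count that includes genes at 0 throughout. The share over all genes is not given here.

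The members share features that the naming did not use. None of the 85 lies on the X chromosome, where 13.7% of the 19176 protein-coding genes of the table lie, and 37 of them (43.5%) lie on chromosome IV, against 16.3% of all. All 30 msp- genes lie on chromosomes II (13) and IV (17). A single exon block was annotated for 49 of the 85 members (57.6%) and for 2.78% of all protein-coding genes; all msp- and nspd- genes and 9 of 12 ssp- genes were of that kind, and none of the spe-, spch- or gsp- genes. There were 12 runs of members less than 10 kb apart, with 30 members, and 4 runs mixed families. In 1 of these, at chromosome I:6097579-6102396 of build WBcel235, nspd-1, spch-3 and ssp-16 lie side by side, and they were among the most abundant of their families, at 76.6, 126 and 54.1 CPM at wild-type 31 h. Another, at chromosome IV:9836034-9851031, holds msp-81, msp-10, msp-56, nspd-2 and ssp-10, which ranged from 8.03 to 106 CPM.

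Whether the genes rose with time was tested by edgeR's quasi-likelihood test of a linear hour term beside cosine and sine terms of 7 h, at a Benjamini-Hochberg adjusted p of 0.01 and a fitted rise of 1 or more on the log2 scale. In wild type 72 of the 75 members tested were called, of 85, where 14.9% of all tested genes were (2089 of 14016). In the mutant 18 of 23 tested members were called, where 8.31% of all tested genes were. The other 62 members did not pass the count filter in the mutant, and most of those that passed did so through the late hours where they are high, so these counts describe the members tested and are no support of their own. With every gene holding a count let in, 79 of 83 members were called in wild type, against 42 of 81 in the mutant. Without the mutant 31 h library 5 of 11 tested members were called, so both the number tested and the number called in the mutant rest largely on that library. Before the steep rise, from wild-type 18 h to 25 h, none of the 10 members tested was called by edgeR, where 0.251% of all genes were, and 5 were at an unadjusted p under 0.05; spe-44 had a fitted rise of 2.85 on the log2 scale with an adjusted p of 0.038. From mutant 18 h to 28 h, 1 of 9 was called, where 3.92% of all genes were; that was spe-44, with a fitted rise of 2.56 (SE 0.458, edgeR adjusted p = 0.0019).

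From 26 h to 31 h the sum of each family was lower in the mutant than in wild type at equal hour. Through 24 h the ratio of mutant to wild type for the spe- sum went both ways. It was 0.919 (95% counting interval 0.828 to 1.02) at 18 h, 1.2 (1.08 to 1.34) at 21 h and 1.06 (0.955 to 1.18) at 24 h. At 25 h the spe- sum was already lower in the mutant, with a ratio of 0.797 (0.721 to 0.880). So were the msp- sum, at 0.255 (0.0758 to 0.686), and the gsp- sum, at 0.313 (0.0756 to 0.983), on 5 and 4 mutant counts. The nspd- interval at 25 h held 1, and the ssp- and spch- sums had too few mutant counts for a ratio. At 31 h the wild-type msp- sum was 10.0-fold the mutant sum, the ssp- sum 7.88-fold, the nspd- sum 6.94-fold, the spch- sum 5.84-fold, the gsp- sum 5.19-fold and the spe- sum 2.60-fold. At 29 h the msp- difference was 21.2-fold and the spch- difference 13.4-fold. Among single genes, 80 of 85 were lower at mutant 31 h than at wild-type 31 h. The share over all genes is not given here, so this count is a description of the members only. In the edgeR test over all 14 hours, with a spline of hour for each genotype, 12 of 78 tested members were called lower in the mutant, where 13.6% of all tested genes were. That test averages over hours at which most members were at 0, and for 50 of the 78 its p was above 0.99 with no usable error, so it says little of them. Among the called members were spe-44 (log2 difference -0.95, SE 0.145, adjusted p = 4.9e-05), spe-41 (-0.87, SE 0.112, adjusted p = 7.8e-06), spe-15 (-0.50, SE 0.0537, adjusted p = 9.9e-07) and spe-18 (-3.76, SE 0.411, adjusted p = 2.5e-06). DESeq2 called 34 and limma 72 of the same 78.

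A test restricted to 26 to 31 h, with each hour as a block, was added after the data were seen. It called 48 of the 78 tested members lower in the mutant, where 4.71% of all tested genes were. They were 24 of 29 msp- genes, 10 of 26 spe- genes, 6 of 8 nspd- genes, 4 of 10 ssp- genes, all 3 spch- genes and gsp-4. The window holds the hours at which the families were on in wild type and off or lower in the mutant. In the rise tests 75 members passed the count filter in wild type, against 23 in the mutant. The calls of both equal-hour tests thus describe the members tested and are no support of their own. msp-81 differed by -4.74 on the log2 scale (SE 0.495, edgeR adjusted p = 0.0038), spch-1 by -4.64 (SE 0.572, adjusted p = 0.0052), spe-18 by -3.72 (SE 0.518, adjusted p = 0.0069), gsp-4 by -3.24 (SE 0.298, adjusted p = 0.0032) and spe-4 by -2.08 (SE 0.266, adjusted p = 0.0057). spe-44 differed by less, -1.55 (SE 0.251), and missed the threshold with an adjusted p of 0.010, while spe-39 and spe-48 differed by -0.11 (SE 0.0741) and -0.03 (SE 0.180). The fitted difference of the spe- genes tested ran from -4.29 for spe-11 to that of spe-48.

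With the mutant compared 3 h later than wild type, the ratios of the last 3 pairs of hours, those with the families on, ran from 0.716 to 1.09. The msp- sum at mutant 29, 30 and 31 h was 0.897 (95% counting interval 0.711 to 1.13), 0.716 (0.611 to 0.838) and 0.857 (0.784 to 0.937) of the wild-type sum at 26, 27 and 28 h. For the gsp- pair the ratios were 0.866, 0.865 and 0.921, and each interval held 1. For the spch- genes they were 0.820, 0.852 and 1.02, and each interval held 1. For the nspd- genes they were 1.09, 0.734 and 0.977, and the interval of the middle pair, 0.577 to 0.931, did not hold 1. For the ssp- genes they were 0.942, 0.770 and 0.817, with an upper bound of 0.997 at the last pair. For the spe- genes they were 0.946, 1.01 and 0.954, and each interval held 1. These intervals cover counting error only, and no replicate of an hour was there to show the spread between cultures. Of these 18 ratios, 14 had an interval that held 1, and the other 4 were below it. Among the earlier pairs of single families with enough counts for a ratio, 3 had an interval that did not hold 1: the spe- ratio was 1.26 (1.14 to 1.39) for mutant 21 h over wild-type 18 h and 1.18 (1.05 to 1.33) for mutant 22 h over wild-type 19 h, and the nspd- ratio was 0.455 (0.211 to 0.925) for mutant 27 h over wild-type 24 h.

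**Figure D4:**
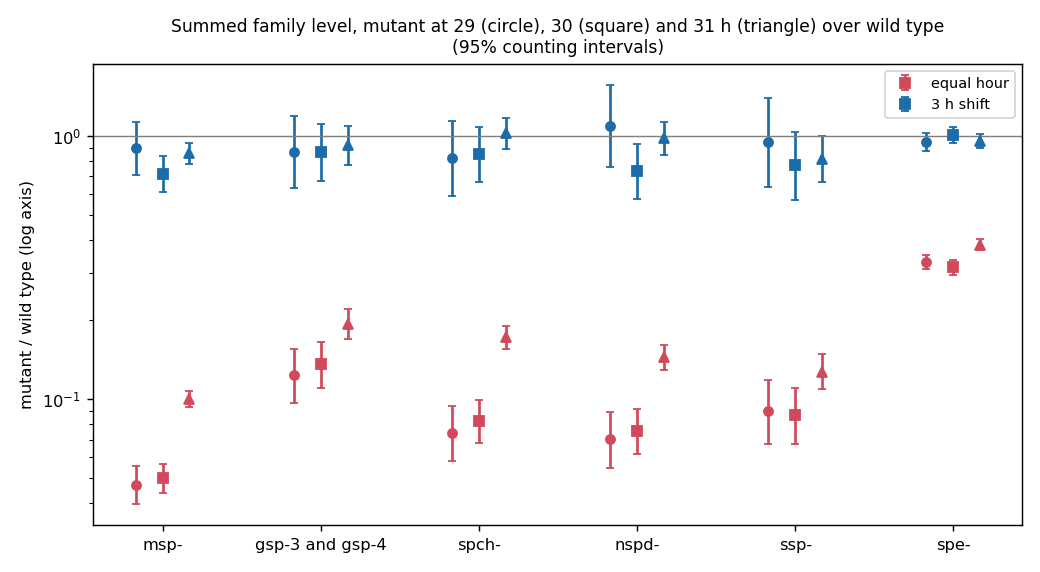
Summed family level in the mutant at 29 h (circle), 30 h (square) and 31 h (triangle) over wild type (vertical, ratio on a log axis), at equal hour in red and against wild type 3 h earlier in blue, with 95% counting intervals. The red ratios for msp- are 0.0472, 0.0498 and 0.0999, and its blue ratios are 0.897, 0.716 and 0.857.

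In the edgeR test over 11 pairs, each a wild-type hour from 18 h to 28 h and the mutant 3 h later, none of the 59 tested members was called, where 18.9% of all tested genes were, and 2 were at an unadjusted p under 0.05. DESeq2 called none and limma 1. For 37 of the 59 the fit again gave a p above 0.99 with no usable error, which leaves 22 members with a usable one. Among these, spe-44 differed by 0.15 (SE 0.137), spe-4 by 0.34 (SE 0.211), spe-41 by 0.11 (SE 0.135), spe-15 by 0.02 (SE 0.0667) and spe-18 by -0.94 (SE 0.406, adjusted p = 0.10) on the log2 scale. With only the last 3 pairs, each as a block, an alternative added after seeing the data, none of 59 was called by edgeR, where 13.1% of all tested genes were, and 6 were at an unadjusted p under 0.05. The differences ran from -1.34 to 0.40 with a median of -0.27, where the median over all tested genes was 0.0047, and 48 of the 59 were below 0. msp-45 had the lowest, -1.34 (SE 0.444, adjusted p = 0.041), followed by ssp-10 at -0.99 (SE 0.374, adjusted p = 0.075) and nspd-5 at -0.90 (SE 0.239, adjusted p = 0.012). With 3 pairs, differences such as that of msp-81, -0.46 (SE 0.217, adjusted p = 0.16), could not be told from none, and a missed threshold does not show that the levels are equal.

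Other genes of sperm development, a list apart from the families, mostly came on with a like delay, and those that decide germ cell fate were on from the first hour. Of its 20 genes in the table, 17 of 20 tested were called as rising in wild type, where 14.9% of all tested genes were, and 14 of 16 tested in the mutant, where 8.31% were. For the 13 with an onset after 18 h in both genotypes the median lag was 3 h, from 3 to 4 h. fog-1 and fog-3, which set the sperm fate, were up earlier: fog-1 was at 13.9 CPM at wild-type 18 h, 36.9 at 24 h, 17.8 at 28 h and 7.67 CPM at 31 h, so the highest of these values came before the families did. In the mutant fog-1 was at 10.4 CPM at 18 h, 37.6 at 27 h, 41.0 at 28 h and 24.6 CPM at 31 h. fog-3 was at 8.41 CPM at wild-type 18 h, 28.2 at 24 h, 32.4 at 26 h and 7.91 CPM at 31 h. Its highest wild-type level, at 26 h, thus came while the families were already rising. In the mutant fog-3 was at 4.41 CPM at 18 h, 32.5 at 28 h and 29.5 CPM at 31 h. alg-4, for an Argonaute protein of spermatogenesis, went from 1.11 CPM at wild-type 25 h to 12.5 at 26 h and 162 CPM at 31 h, and from 1.48 CPM at mutant 28 h to 9.36 at 29 h and 40.9 CPM at 31 h. fer-1, for a protein of membranous organelle fusion, was earlier, at 3.99 CPM at wild-type 24 h and 3.18 CPM at mutant 27 h. ssq-2, of another sperm-specific family, and msd-4, for a protein with an MSP domain, came on at wild-type 26 h and mutant 29 h and reached 176 and 107 CPM at wild-type 31 h.

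Values of the other phosphatase 1 genes and of lists for other cells are given beside those of the sperm families. gsp-1 and gsp-2, which are used in many tissues, summed to 502 to 583 CPM in wild type and 546 to 597 CPM in the mutant, and neither was called as rising in either genotype, lower at equal hour or different at the 3 h shift. The sum hides opposite moves late in wild type. From wild-type 28 h to 31 h gsp-2 went from 329 to 238 CPM and gsp-1 from 226 to 264 CPM. At mutant 31 h they were at 341 and 226 CPM. The 17 oocyte and eggshell genes summed to 159 to 227 CPM in wild type from 18 h to 24 h, 268 CPM at 26 h and 571 CPM at 31 h, and to 312 CPM at mutant 31 h; 14 of 17 were called as rising in wild type, against 12 of 15 in the mutant, where the shares of all tested genes were the same 14.9% and 8.31%. The 21 germline and meiosis genes went from 675 to 1138 CPM over wild-type 18 to 24 h to 1924 CPM at 31 h and to 1811 CPM at mutant 31 h. Called as rising were 17 of the 20 tested genes of this list for wild type, and 16 of 20 for the mutant. Over all 14 hours 11 of the 20 were called lower at equal hour, where 13.6% of all tested genes were. Within 26 to 31 h none of the 20 was called lower. At the 3 h shift 2 of 20 were called higher. Rising, and being lower over all hours, were thus shared by genes of this list. The 9 genes of male neurons and seminal fluid summed to 9.72 to 14.98 CPM from wild-type 18 h to 24 h and 11.1 CPM at 31 h, and to 10.1 to 18.1 CPM from mutant 18 h to 27 h and 23.1 CPM at 31 h, and 1 of them had no count. The part of these lists in the result was not tested.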

How the data were processed

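Worms were harvested hourly, polyA RNA was prepared with a stranded mRNA kit and read as pairs on an Illumina NovaSeq instrument. The authors aligned the reads to build ce10 with HISAT2, through an R package, and deposited counts per gene (whole numbers, not normalized), which were used here; their deposited normalized table was not used. Gene names were matched by WormBase ID to 19182 of 20392 IDs, and positions and exon lengths came from the Ensembl annotation of build WBcel235, another build, by ID. The ID WBGene00006040 was named ssp-11 from RefSeq, since the name table gives ssp-9 to it and to another ID. Levels are CPM by library total. Library totals were 5.12 to 9.60 in units of 1000000 counts. Intervals are exact Poisson or conditional binomial at 95% and cover counting error only. For interpolation, a level of 0 was set to 0.05 CPM, and ratios needed more than 3 counts in each library.

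Tests ran over all genes in R 4.3.3 with edgeR 4.0.16 (TMM scaling, filterByExpr, splines of 6 components). DESeq2 1.42.0 and limma 3.58.1 (log2 of scaled count + 8) were the alternatives. A trial on simulated data was run, and is not taken as a check of DESeq2 or limma. Nor does it cover members without counts at many hours. The edgeR fit had no usable error for 50 of 78 members at equal hour and 37 of 59 at the 3 h shift. The SE printed beside an edgeR difference was the difference divided by the root of its F statistic. Genes named in the text were, by rule, in each family the highest at wild-type 31 h and the earliest to come on, those with the lowest and highest lags, any called at the 3 h shift, and a list by function; spe-19, spe-36, spe-41, spe-43, spe-48, spe-49, spe-51, spe-54, msp-10, msp-32, msp-45, msp-56, nspd-2, nspd-5, nspd-8, ssp-10 and ssp-37 were added after their values were seen. The members, lists and the 3 h shift were chosen with earlier results of these data known. Of the list of other sperm genes, trp-3 is spe-41, a member, and peel-1 and msd-3 were not analysed here. Some named members are not reported here. No pair of libraries held identical counts.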

Additional observations from a re-analysis of the deposited data

How the results depend on the processing

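The median lag stayed at 3 h with thresholds of 0.5, 2 and 5 CPM, per kb of exon and with TMM scaling, and was 3.17 h at 10% of each gene's own level. The msp- lag was 3.30 h at 50 CPM, beyond its counting half-width; the other family lags stayed within theirs. Members rising in the mutant, 18 in the report, numbered 5 with limma, 42 with no filter, 5 without the 31 h library, 7 with the linear term alone and 1 from 18 to 28 h, and members rising in wild type numbered 0 from 18 to 25 h, with fewer libraries and members tested. Members lower at equal hour, 12 in the report, numbered 34 with DESeq2, 72 with limma and 48 within 26 to 31 h. At the shift limma called 1 member, and a shift of 2 h gave 2 calls, 1 of them spe-18 at -2.02; the counts were 0 at 4 h, with the pair block, and without the first or the last pair. For named genes, 441 alternative values kept the call or its absence, 6 lost a call (all from 18 to 25 h) and 1 gained one. The labels give no replicate numbers, so pairing was by hour alone: the pair block at the shift and the hour block within 26 to 31 h. Members at a few counts, such as spe-29, limit what depth can show.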
